A study of Mus musculus with 11 samples.

Results

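The cytosolic ribosome is built from a large and a small subunit, and this account describes the genes of its protein parts in the embryonic mouse cortex after loss of Chd8. Members were the deposited loci with a gene symbol of the Rpl, Rps or Rplp kind, with at most 1 of the letters a, x, y or l after the number, or the symbol Rpsa. This gave 81 of 24138 loci, 49 of the large subunit and 32 of the small subunit. The rule used names and no measured value, but it was chosen with earlier results of these data known. At 2 members the deposited locus joined several symbols (Rpl30 with Gm12191, and Rpl13a with Mir5121 and Snord33), and those values cannot be given to 1 gene.

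RNA was measured in microdissected cortex at E14.5 (embryonic day) in 2 Chd8 cKO libraries and 3 control libraries. The cKO libraries were labelled Chd8 c/c with Emx1-cre, a recombinase driver of dorsal telencephalic progenitors and their descendants, so ventral neurons, microglia and vessels of the same tissue keep Chd8. The controls carried floxed alleles with no Cre listed, and control 1 was labelled c/+ while controls 2 and 3 were labelled c/c. Whether a library came from 1 embryo or from a pool is not given in the labels, and p-values therefore measure only the spread between these libraries. A protocol note of these libraries names Eed as the deleted gene, while titles and genotypes name Chd8, which were followed here. The series also lists 6 ATAC-seq samples of sorted progenitors, which were not analysed here.

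Each ribosome holds a single copy of nearly every ribosomal protein, while the acidic P1 and P2 proteins of the stalk are present in more copies. Most of these mRNAs begin with a tract of pyrimidines, the TOP (terminal oligopyrimidine) start, through which mTOR and the RNA-binding protein Larp1 control their translation together. Free Rpl5 and Rpl11, bound to 5S ribosomal RNA, can hold the ubiquitin ligase Mdm2 and so stabilise p53, and haploinsufficiency of many ribosomal protein genes causes Diamond-Blackfan anaemia in humans. Proliferating progenitors are known for a high demand for ribosomes.

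The stretches below show the start regions of members with high levels (Rps26), of members listed near 0 in a library (Rpl11, Rpl34) and of members lower in the cKO at an unadjusted p (Rpl6, Rpl37). Each runs from 70 bases before to 30 bases from the start annotated by RefSeq in GRCm38.p6, a patch release of the assembly that mm10 names, 5′ to 3′ on the gene's strand. Capitals mark a match of CTCTTTC, a pyrimidine stretch, or of CCGGAAG, the core of an ETS factor site, on either strand. Every stretch shown holds a match. The same stretches of Rps15, also a member with a high level, and of the first annotated start of Rpl34 held none and are not shown.
Rps26 (chr10:128626477-128626576, minus strand): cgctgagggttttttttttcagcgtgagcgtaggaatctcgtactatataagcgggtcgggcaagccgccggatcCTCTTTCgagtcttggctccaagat
Rpl11 (chr4:136053364-136053463, minus strand): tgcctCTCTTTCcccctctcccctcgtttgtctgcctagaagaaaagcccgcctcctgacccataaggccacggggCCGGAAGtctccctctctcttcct
Rpl34, second annotated start (chr3:130730308-130730407, minus strand): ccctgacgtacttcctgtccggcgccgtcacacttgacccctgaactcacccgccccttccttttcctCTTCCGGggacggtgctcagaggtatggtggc
Rpl37 (chr15:5116543-5116642, plus strand): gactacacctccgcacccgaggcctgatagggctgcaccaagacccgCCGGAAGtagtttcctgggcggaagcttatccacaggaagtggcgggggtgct
Rpl6 (chr5:121204431-121204530, plus strand): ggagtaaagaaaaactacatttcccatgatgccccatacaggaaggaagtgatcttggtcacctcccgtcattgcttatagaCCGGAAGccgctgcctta

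RefSeq start windows of 300 bases were matched by symbol for 60 of the 81 members, with 72 windows in all because some genes have several annotated starts. CTCTTTC or its reverse complement GAAAGAG was present in 20 of the 72 windows (27.8%), against 8.16% of all 32851 windows of the table. CCGGAAG or its reverse complement CTTCCGG was present in 26 windows (36.1%), against 8.86% of all windows. AAGATGG, the core letters of a YY1 site, or CCATCTT was present in 11 windows (15.3%), against 6.34% of all windows. CCGGAAG and AAGATGG can share their AAG, so a window can be counted for both. A match is a description of the letters and not a binding site, and annotated starts can lie some bases away from the start used in these cells.

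Depth is unknown, since the file gives FPKM (fragments scaled to transcript length and library size) without counts. The library totals were 418191 to 484296 FPKM, with 12237 to 12717 loci at 1 FPKM or more. Chd8 itself was 19.3 and 15.1 FPKM in cKO 1 and 2, against 31.5, 30.02 and 31.8 FPKM in controls 1 to 3 (exact two-sided permutation test p = 0.1, the smallest that 10 splits allow). The defining cortical genes Emx1, Emx2, Pax6, Tbr1, Neurod6 and Neurod2 were above 0 in every library. In limma on log2(FPKM + 1), 2 loci were higher and 4 lower in the cKO at an adjusted p under 0.05 among the 12672 loci whose mean reached 1 FPKM. Chd8 itself was not called in that fit (log2 change -0.83, SE 0.146, limma adjusted p = 0.575).

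Levels of the members in cortex differed widely. The mean over the 5 libraries, which is per length of transcript, had a median of 43.97 FPKM. Of the 81 members, 30 had a mean of at least 100 FPKM, 15 in each subunit, and 11 had a mean under 1 FPKM and were not tested. Among the highest of the small subunit were Rps26, which lies near the mRNA exit, and Rps15, a protein of the subunit head. In the large subunit the 3 highest were the stalk protein gene Rplp1, Rpl8, which contacts the peptidyl transferase centre, and Rpl39, which lines the peptide exit tunnel. Rplp1 was 898 and 1140.3 FPKM in cKO 1 and 2, against 758, 1848 and 1292 FPKM in controls 1 to 3. Control 2 was highest, and both cKO libraries lay inside the control range. Rps26 was 1131 and 942 FPKM in cKO 1 and 2, against 1135, 1457 and 1200.4 FPKM in controls 1 to 3, with both cKO libraries below every control and cKO 1 close to control 1. Rps15 was 764 and 653 FPKM in cKO 1 and 2, against 605, 1320.02 and 1045 FPKM in controls 1 to 3. Rpl8 was 944 and 907 FPKM in cKO 1 and 2, against 905, 1603 and 1157 FPKM in controls 1 to 3. Rpl39 was 708 and 725 FPKM in cKO 1 and 2, against 686, 952 and 932 FPKM in controls 1 to 3. In Rps15, Rpl8 and Rpl39 both cKO libraries lay just above control 1 and below controls 2 and 3. At the other extreme Rpl10, an X-linked gene of the large subunit that every growing cell uses, was 0.340 and 1.06 FPKM in cKO 1 and 2, against 0.533, 0.888 and 1.34 FPKM in controls 1 to 3.

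Many ribosomal protein genes have processed pseudogenes, intronless copies that share reads with the parent gene. RefSeq names 316 pseudogenes after 63 of the 81 members, with up to 23 for 1 gene. The 18 members with none had a median level of 189 FPKM, or 281 FPKM without the 2 listed at 0 in all libraries, and the 28 members with 1 or 2 had a median of 81.3 FPKM. The 17 members with 3 to 5 had a median of 24.5 FPKM, and the 18 members with 6 or more had one of 21.2 FPKM. Across the 81 members, Spearman's rho between the number of named pseudogenes and the mean FPKM was -0.27, and it was -0.35 across the 79 not listed at 0 in all libraries. These points share the same libraries and the same alignment, and pseudogenes under other names were not counted. Rps12 and Rpl31, with 23 named pseudogenes each, had a mean of 1.84 and 26.4 FPKM. How the authors' alignment treated reads with several matches is not given in the sources used here, so the level of a single member is uncertain and its part in low values was not tested.

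**Figure D1:**
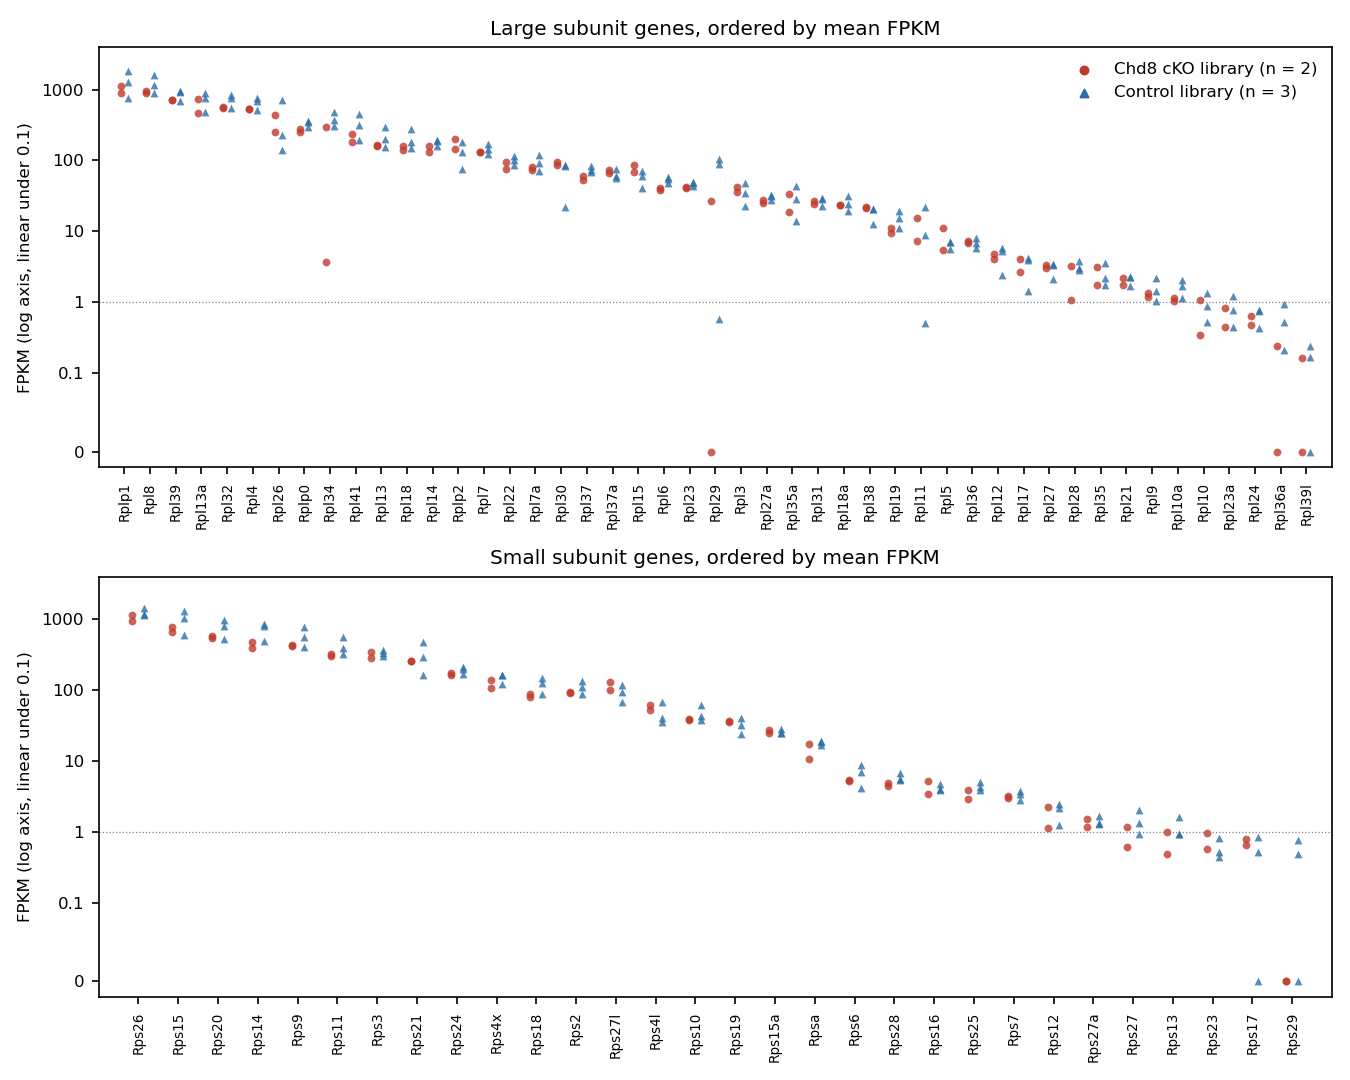
FPKM of each ribosomal protein gene (x axis, ordered by mean) in each library on a log axis that is linear under 0.1; red circles are the 2 cKO libraries and blue triangles the 3 control libraries, and the dotted line marks 1 FPKM. Levels run over several orders of magnitude, and Rpl34, Rpl29 and Rpl11 have single libraries far below the others; Rpl3l and Rpl10l, listed at 0 in all libraries, are not drawn, nor are members not reported here.

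**Figure D2:**
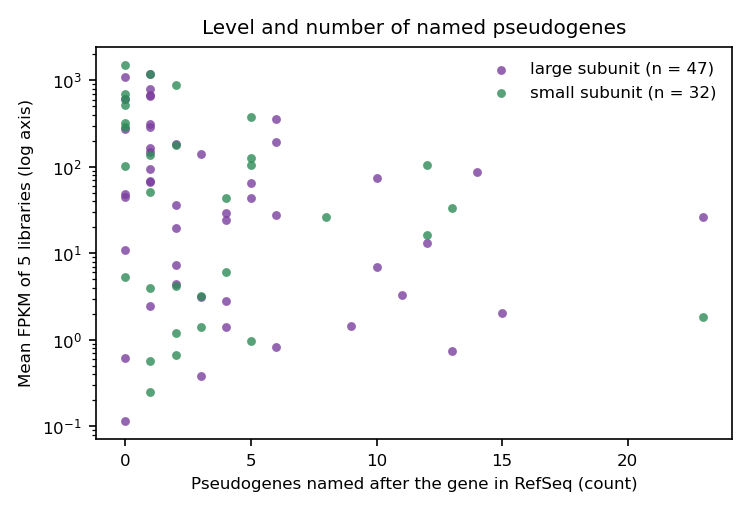
Mean FPKM over the 5 libraries (log axis) against the number of pseudogenes that RefSeq names after the gene, for 79 ribosomal protein genes of the large (purple) and small (green) subunit. The 16 drawn genes with no named pseudogene have a median of 281 FPKM, and genes with 6 or more have a median of 21.2 FPKM.

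The comparison of cKO with control asks whether ribosomal protein mRNAs differ as a group between cortex with and without Chd8 in its dorsal lineage. Most members were a little lower on average in the cKO, but the cKO libraries lay inside the range of the controls. The summed FPKM of the 70 tested members was 13115 and 13132 in cKO 1 and 2, against 12213, 21003 and 16684 in controls 1 to 3. Both cKO sums were above control 1 and below controls 2 and 3. As a share of all FPKM this was 2.96% and 3.14% in cKO 1 and 2, against 2.90%, 4.34% and 3.78% in controls 1 to 3. The groups overlapped on both scales, with a mean share of 3.05% ± 0.131 in the cKO (SD, n = 2) and 3.67% ± 0.726 in the controls (SD, n = 3). The 11 untested members added between 3.59 and 7.55 FPKM to a library. In bulk tissue, fewer cells of a type and less RNA per cell cannot be told apart.

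None of the 70 tested members passed limma at an adjusted p under 0.05 in either direction, against 0.0158% of all tested loci called higher and 0.0316% called lower. At an unadjusted p under 0.05, 3 members were lower (4.29%, against 4.37% of all tested loci) and none higher (against 3.08% of all tested loci). The median log2 change of the members was -0.24, beside -0.025 over all tested loci, and 53 of 70 (75.7%) were below 0, beside 53.1% of all tested loci. The members' median rested on which control was used. It was -0.36 without control 1, -0.14 without control 2 and -0.16 without cKO 1. Both cKO libraries lay below every control in 12 of 70 members (17.1%), a share near the 15.6% of all tested loci. After median centring of the libraries this count was 6 of 70 (8.57%), against 13.5% of all tested loci. Both lay above every control in 2 members, or 2.86% against 13.4% of all tested loci. These were Rpl38 and Rpl30, named because the count is small. Rpl38, a large subunit protein known for selective translation in mouse patterning, was 21.2 and 21.9 FPKM in cKO 1 and 2, against 12.6, 20.4 and 20.9 FPKM in controls 1 to 3. Control 1 was the lowest library, and the log2 change of Rpl38 was 0.28 with it and 0.059 without it.

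The controls differed among themselves. Control 2 had the highest of the 5 values in 50 of 70 members (71.4%), against 34.8% of all tested loci. Control 1, the c/+ library, had the lowest in 26 members (37.1%), against 19.0% of all tested loci. The median log2 difference of control 2 minus control 1 was 0.46 over the members and 0.0093 over all tested loci. With control 1 left out, both cKO libraries were below the remaining controls in 45 of 70 members (64.3%), against 28.8% of all tested loci. In that comparison, 13 members were lower at an unadjusted p under 0.05 in limma, where 7.68% of all tested loci were, and none passed adjustment (smallest adjusted p = 0.315), against 0.0957% of all tested loci called lower. With control 2 left out the count below every remaining control was 13 of 70 (18.6%), against 19.7% of all tested loci, and 8 members lay above, against 18.2%. Without control 3 the count below was 13 of 70 (18.6%), against 19.4%. Without cKO 1 it was 19 of 70 (27.1%), against 34.7%, and without cKO 2 it was 26 of 71 (36.6%), against 22.0% of all tested loci. The genotype difference of control 1 and its library cannot be told apart, since it is the single c/+ library.

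Summed markers of several cell types had the same order of controls as the ribosomal protein sum, and others did not. For intermediate progenitors, the basal dividing precursors of cortical neurons, the 6 genes (Eomes, Neurog2, Neurog1, Btg2, Insm1, Neurod1) summed to 229.5 and 167 FPKM in cKO 1 and 2, against 238, 487 and 320 FPKM in controls 1 to 3. The order of the 3 controls was the same as for the ribosomal protein sum, and none of these genes was at 0 in a library. In 4 of the 6 both cKO libraries were below every control, which 15.6% of all tested loci were. The 8 radial glial genes summed to 1404 and 1493 FPKM in cKO 1 and 2, against 1344, 1873 and 1557 FPKM in controls 1 to 3, again with control 2 highest and control 1 lowest. The 7 genes of proliferating cells summed to 296 and 372 FPKM in cKO 1 and 2, against 216, 349 and 308 FPKM in controls 1 to 3. The 7 cortical genes summed to 857 and 568 FPKM in cKO 1 and 2, against 531, 1218 and 881 FPKM in controls 1 to 3, in the same order of controls. The 5 meningeal genes summed to 5.83 and 4.40 FPKM in cKO 1 and 2, against 3.07, 17.7 and 4.50 FPKM in controls 1 to 3, with control 2 again highest. The 7 neuronal genes had the opposite order of controls, at 2701 and 2216 FPKM in cKO 1 and 2, against 2457, 2250.2 and 2398 FPKM in controls 1 to 3. The sums of intermediate progenitor, vascular, ventral and microglial genes did not overlap between cKO and control, unlike the ribosomal protein sum. Vascular genes summed to 83.9 and 93.9 FPKM in the cKO, against 76.6, 82.9 and 69.1 FPKM in controls 1 to 3. Of these 6 genes, 1 was above every control in both cKO libraries. Genes of the ventral telencephalon, which keeps Chd8, summed to 381 and 418 FPKM in the cKO, against 212, 189 and 280.5 FPKM in controls 1 to 3, with 6 of 7 above every control. The 8 microglial genes summed to 85.2 and 80.2 FPKM in the cKO, against 26.4, 43.9 and 32.9 FPKM in controls 1 to 3, with 7 of 8 above every control, which 13.4% of all tested loci were. The part of these cell types in the ribosomal protein values was not tested.

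**Figure D3:**
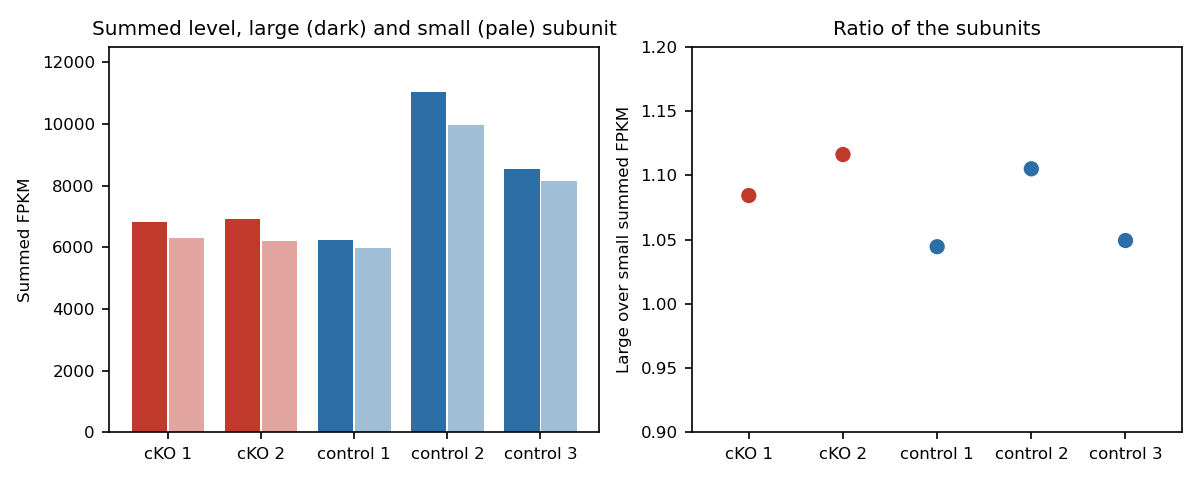
Left, summed FPKM of the tested large (dark) and small (pale) subunit genes in each library; right, the ratio of the sums, on an axis that does not start at 0. Red is cKO and blue is control. The cKO sums lie just above control 1 and below controls 2 and 3, and both cKO ratios (1.08 and 1.12) fall among or close to the control ratios (1.04, 1.11 and 1.05).

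Large and small subunit genes had median changes of the same sign. The 42 tested large subunit genes had a median log2 change of -0.20, with 29 (69%) below 0. The 28 small subunit genes had one of -0.27, with 24 (85.7%) below 0. Of all tested loci 53.1% were below 0. Large subunit genes summed to 6823 and 6927 FPKM in cKO 1 and 2, against 6240, 11026 and 8543 FPKM in controls 1 to 3. Small subunit genes summed to 6292 and 6205 FPKM in cKO 1 and 2, against 5973, 9977 and 8141 FPKM in controls 1 to 3. The ratio of large over small was 1.08 and 1.12 in cKO 1 and 2, against 1.04, 1.11 and 1.05 in controls 1 to 3. Control 2 had a higher ratio than cKO 1, so the groups overlapped. The mean ratio was 1.10 ± 0.0226 in the cKO and 1.07 ± 0.0337 in the controls (SD, n = 2 and 3). With the 3 members listed near 0 left out it was 1.07 ± 0.0594 in the cKO and 1.01 ± 0.0299 in the controls, and 1.03 and 1.11 in cKO 1 and 2 against 0.994, 1.04 and 0.992 in controls 1 to 3.

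By level, the most abundant members had the lowest median change. The 30 members with a mean of at least 100 FPKM had a median log2 change of -0.29, beside -0.092 for the 645 other loci at that level. Of these 30 members, 27 (90%) were below 0, beside 62.2% of those other loci. The 22 members with a mean of 10 to 100 FPKM had a median of -0.065, beside -0.036 for 6719 other loci, and the 18 members with a mean of 1 to 10 FPKM had one of -0.060, beside 0.0037 for 5238 other loci. In the highest class control 2 exceeded control 1 by a median of 0.79 on the log2 scale, beside 0.28 for the other loci there. The pseudocount of 1 FPKM compresses changes of low genes on this scale.

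**Figure D4:**
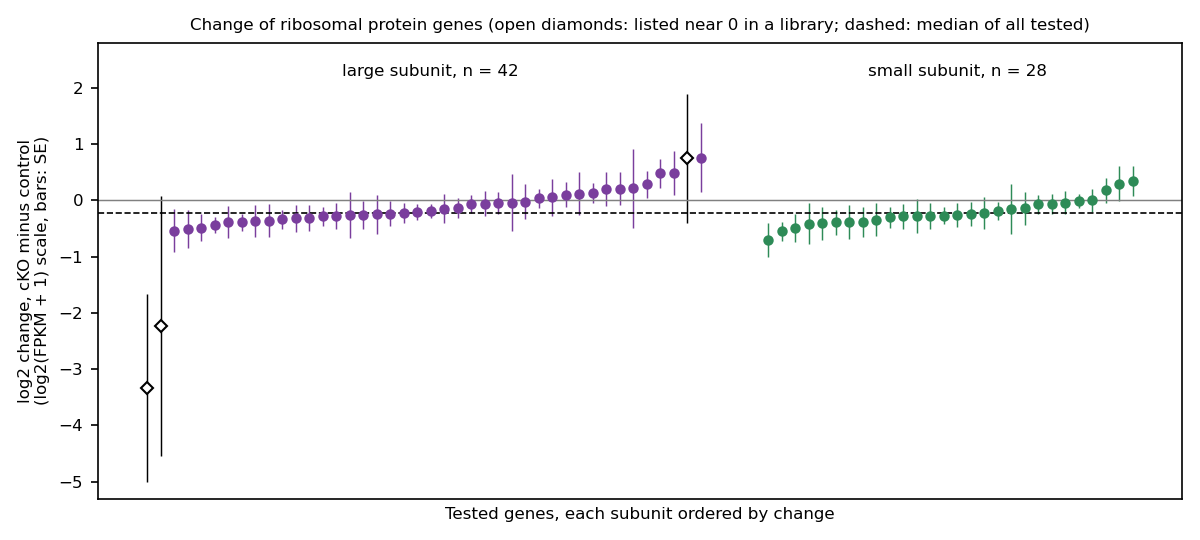
Log2 change of the 70 tested ribosomal protein genes, as cKO minus control of log2(FPKM + 1), with SE bars from limma; large subunit genes are purple and small subunit genes green, each ordered by change, and open diamonds are the genes listed near 0 in a library. The dashed line is the members' median of -0.24; the 2 lowest points are Rpl34 and Rpl29, and their bars are much longer than those of the other genes.

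A member was taken as listed near 0 in a library when its FPKM there was under 10% of the median of the other 4 libraries and that median was at least 10 FPKM. Of the 52 members with that level, 3 met this (5.77%), against 1.38% of all 7458 loci with that level. All 3 belonged to the large subunit, which had 32 of the 52. Among the other 49 the lowest library was at 0.254 of the median of the other 4. These 3 held the lowest and the second lowest log2 change of all members, and one of the highest.

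Rpl34 (chromosome 3, 130726827 to 130730398) encodes a protein on the surface of the large subunit. It was 297 and 3.66 FPKM in cKO 1 and 2, against 303, 478 and 369.9 FPKM in controls 1 to 3. A single cKO library was near 0, while cKO 1 was close to control 1. Its log2 change was -3.34 (SE 1.67, limma adjusted p = 0.575). With cKO 2 as the single cKO library left in the fit, it was -6.34 and was called lower (limma adjusted p = 0.0187, against 0.0158% of all tested loci), and there the lone library is assumed to vary like the controls. In the authors' deposited table it was marked significant with a log2 fold change of -1.35 and a q-value of 0.00331.

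Rpl29 (chromosome 9, 106428889 to 106431568) encodes a small protein of the large subunit, and mice without it are viable and small. It was 26.6 and 0 FPKM in cKO 1 and 2, against 0.576, 104 and 88.8 FPKM in controls 1 to 3. It was thus near 0 in 1 library of each group, and cKO 1 was the middle of the 5 values. The log2 change was -2.23 with an SE of 2.31 (limma adjusted p = 0.714), and it was 0.17 without cKO 2. The authors' deposited table marked it significant, with a log2 fold change of -2.28 and a q-value of 0.00331.

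Rpl11 (chromosome 4, 136049354 to 136053393), a partner of 5S RNA and Mdm2, was 15.5 and 7.39 FPKM in cKO 1 and 2, against 0.514, 21.9 and 8.94 FPKM in controls 1 to 3. Control 1 alone was near 0. The log2 change of 0.75 (SE 1.14, limma adjusted p = 0.807) was -0.36 without control 1. Its partner Rpl5 was 5.37 and 11.2 FPKM in cKO 1 and 2, against 5.72, 7.12 and 7.16 FPKM in controls 1 to 3. The cKO libraries of Rpl5 lay on both sides of the controls, and its log2 change of 0.21 was -0.26 without cKO 2. Neither gene of the 5S particle therefore had a direction that held in these libraries.

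**Figure D5:**
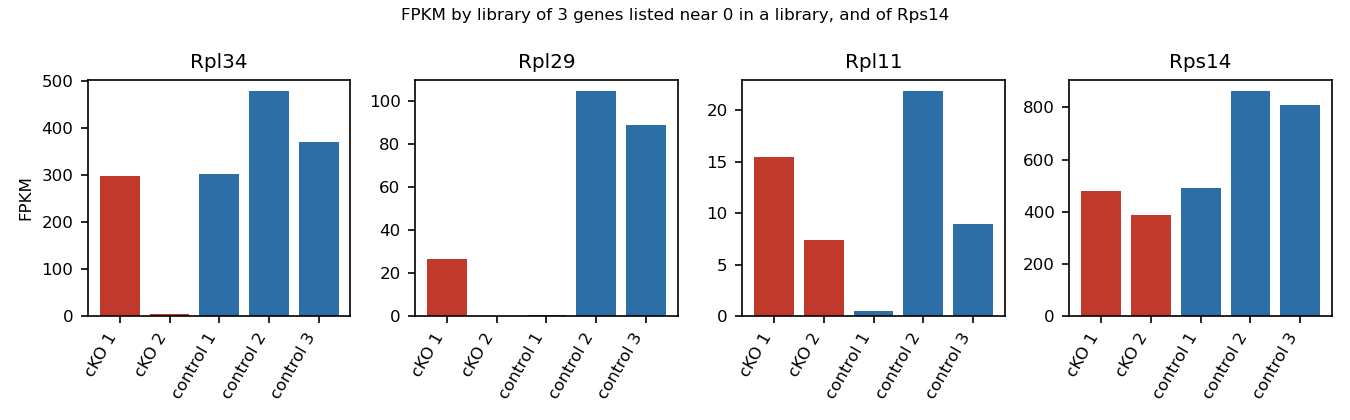
FPKM by library (red cKO, blue control) of Rpl34, Rpl29 and Rpl11, which are listed near 0 in a library, and of Rps14, which is not; each panel has its own axis from 0. Rpl34 is near 0 in cKO 2 alone, Rpl29 in cKO 2 and control 1, and Rpl11 in control 1 alone.

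Of the 81 members, 3 were marked significant in the authors' deposited table, Rpl34, Rpl29 and Rps14, all lower in the cKO. None was marked higher. Over all loci of that table with a test, 3.0% were marked lower and 1.21% higher. Rpl10l, Rpl36a, Rpl39l, Rpl3l and Rps29 had no test there, so fewer than the 81 members were tested. Rpl34 and Rpl29 are the genes above with a library near 0. Rps14 (chromosome 18, 60774596 to 60778546), a protein of the small subunit platform whose loss underlies the anaemia of the human 5q- syndrome, had values of the usual range in every library. It was 478 and 387 FPKM in cKO 1 and 2, against 490, 862 and 811 FPKM in controls 1 to 3. Both cKO libraries were below every control, but cKO 1 was close to control 1. The log2 change was -0.70 (SE 0.30, limma adjusted p = 0.575), the largest decrease of a member without a library near 0. In the authors' deposited table its log2 fold change was -0.74 with a q-value of 0.00331.

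Rpl6 and Rpl37 were among the members with an unadjusted limma p under 0.05, and in both the groups did not overlap. Rpl6 (chromosome 5, 121204501 to 121209241) of the large subunit was 40.5 and 38.9 FPKM in cKO 1 and 2, against 47.9, 59.1 and 55.5 FPKM in controls 1 to 3 (log2 change -0.43, SE 0.14, limma adjusted p = 0.575). Rpl37 (chromosome 15, 5116613 to 5119140) was 53.8 and 60.2 FPKM in cKO 1 and 2, against 67.8, 84.2 and 73.6 FPKM in controls 1 to 3. Both kept a negative log2 change in every alternative run. The other large decreases belonged to Rpl41, Rpl28 and Rps18, with log2 changes of -0.54, -0.51 and -0.49. Rpl41, the shortest ribosomal protein, was 234 and 183 FPKM in cKO 1 and 2, against 192, 451 and 318 FPKM in controls 1 to 3, so cKO 1 lay above control 1. Rpl28 was 1.06 and 3.21 FPKM in cKO 1 and 2, against 3.04, 3.80 and 2.83 FPKM in controls 1 to 3, so the low value was that of cKO 1 alone. Rps18 was 86.7 and 80.6 FPKM in cKO 1 and 2, against 86.6, 148 and 127 FPKM in controls 1 to 3, with cKO 1 level with control 1.

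The largest increases among members with a single symbol and no library near 0 were those of Rplp2, Rpl15, Rps27l, Rps4l and Rpl38, with log2 changes of 0.48, 0.47, 0.34, 0.29 and 0.28, and none passed. Rplp2, the stalk protein P2, was 145 and 204 FPKM in cKO 1 and 2, against 76.3, 184 and 131 FPKM in controls 1 to 3. Rpl15, a core protein of the large subunit, was 69.3 and 87.6 FPKM in cKO 1 and 2, against 70.1, 41.2 and 60.2 FPKM in controls 1 to 3, and control 2 was here the lowest library. Rps27l, a paralogue of Rps27 and a p53 target, was 129.7 and 100.7 FPKM in cKO 1 and 2, against 66.9, 118 and 92.7 FPKM in controls 1 to 3. Rps4l was 61.9 and 51.6 FPKM in cKO 1 and 2, against 40.6, 68.8 and 34.9 FPKM in controls 1 to 3. Its symbol had no protein-coding match in RefSeq. In each of the first 4 genes a control lay within or above the cKO values. Rpl30, at the joined locus, was 86.9 and 96.4 FPKM in cKO 1 and 2, against 21.8, 85.2 and 82.7 FPKM in controls 1 to 3. Its log2 change was 0.76 with the low control 1 and 0.12 without it.

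Genes of the stalk, which recruits the elongation factors, had log2 changes of both signs. Rplp0, the base of the stalk, was 252 and 283 FPKM in cKO 1 and 2, against 300.5, 349 and 366 FPKM in controls 1 to 3 (log2 change -0.34, limma adjusted p = 0.575). Rplp1 had a log2 change of -0.27, and Rplp2 one of 0.48. Rpl12, at the stalk base, was 4.13 and 4.73 FPKM in cKO 1 and 2, against 2.40, 5.82 and 5.20 FPKM in controls 1 to 3. Rps6, the substrate of S6 kinase, was 5.32 and 5.18 FPKM in cKO 1 and 2, against 8.73, 4.15 and 6.87 FPKM in controls 1 to 3. Rpsa, also known as the laminin receptor, was 10.5 and 17.1 FPKM in cKO 1 and 2, against 16.6, 18.9 and 18.6 FPKM in controls 1 to 3. Rps19, the gene most often mutated in Diamond-Blackfan anaemia, was 35.5 and 35.9 FPKM in cKO 1 and 2, against 40.5, 32.1 and 24.1 FPKM in controls 1 to 3. Both cKO values of Rps19 and Rps6 lay inside the control range. Of 19 Diamond-Blackfan genes 17 were tested, with a median log2 change of -0.046. Of these, 11 (64.7%) were below 0, against 53.1% of all tested loci. None passed at an unadjusted p under 0.05 in limma, against 4.37% of all tested loci lower and 3.08% higher. At these shares 17 genes are too few for a count of none to set them apart.

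Paralogues are copies of ribosomal protein genes, some of them specific to muscle or testis in adults. Rpl3l, known from muscle, and Rpl10l, known from testis, were listed at 0 in all 5 libraries, and Rpl39l did not exceed 0.244 FPKM in a library. Their partners Rpl3 and Rpl39 had a mean of 36.6 and 801 FPKM, and Rpl10 had one of 0.833 FPKM. Rps27l (mean 102 FPKM) was listed far above Rps27 (mean 1.21 FPKM) on the per-length scale. RefSeq names 2 pseudogenes after Rps27 and none after Rps27l. Since the handling of reads with several matches is not given, these values cannot rank the paralogues. Rps4l, at a mean of 51.6 FPKM, was below Rps4x at 138 FPKM. Rps4l matched no protein-coding gene of RefSeq, which names 1 pseudogene after it. Whether its locus encodes a protein, or shares reads with Rps4x, was not tested. Rpl22l1, a paralogue of Rpl22, was 43.9 and 56.1 FPKM in cKO 1 and 2, against 41.8, 51.1 and 54.4 FPKM in controls 1 to 3. Rpl22 was 96.4 and 75.5 FPKM in cKO 1 and 2, against 87.8, 114 and 100.02 FPKM in controls 1 to 3. Rpl7l1 and Rpl36al had log2 changes of -0.025 and 0.052, beside -0.14 for Rpl7, and Rpl36a was under 1 FPKM in every library. The X-linked Rps4x and Rpl39 had log2 changes of -0.26 and -0.24.

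Other genes of the translation machinery were also read. Of 7 ribosomal protein loci outside the naming rule, 6 were tested and none passed, with a median log2 change of -0.13. Rps3a1 of the small subunit was 59.02 and 53.96 FPKM in cKO 1 and 2, against 58.7, 83.2 and 77.7 FPKM in controls 1 to 3. Gnb2l1, which encodes the scaffold RACK1 of the small subunit, was 634 and 833 FPKM in cKO 1 and 2, against 684, 1026 and 905 FPKM in controls 1 to 3. Of 16 other TOP mRNAs, with a median log2 change of -0.080, none passed adjustment in limma. Below 0 were 12 of the 16 (75%), beside 53.1% of all tested loci. Lower at an unadjusted p under 0.05 was 1 of the 16 (6.25%, against 4.37% of all tested loci). This was Eef1g, a subunit of the elongation factor eEF1. It was 44.4 and 38.5 FPKM in cKO 1 and 2, against 48.00, 68.7 and 59.8 FPKM in controls 1 to 3. Eef1a1, which delivers aminoacyl-tRNA, had a log2 change of -0.050, which was 0.043 after quantile normalization. Of 28 translation factors 2 were higher at an unadjusted p under 0.05 (7.14%, against 3.08% of all tested loci), none lower, and none passed adjustment in limma (median log2 change -0.12). In 7 of the 28 (25.0%) both cKO libraries lay above every control, against 13.4% of all tested loci. In 2 (7.14%) both lay below, against 15.6% of all tested loci. Eif2s1, the alpha subunit of eIF2, was 16.6 and 21.7 FPKM in cKO 1 and 2, against 13.6, 12.3 and 14.3 FPKM in controls 1 to 3. Eif4e, the cap-binding protein, was 24.4 and 31.9 FPKM in cKO 1 and 2, against 22.00, 18.6 and 21.5 FPKM in controls 1 to 3. Both genes are among those 7. The 9 regulators of TOP mRNAs had a median log2 change of -0.049. None passed an unadjusted p of 0.05 in limma, against 4.37% of all tested loci lower and 3.08% higher. In 2 of the 9 (22.2%) both cKO libraries lay below every control, against 15.6% of all tested loci, and in none above. These were Rptor and Rps6kb2, with log2 changes of -0.29 and -0.28. Larp1 was 25.8 and 17.6 FPKM in cKO 1 and 2, against 29.6, 23.8 and 24.7 FPKM in controls 1 to 3, and its log2 change was -0.27 with cKO 2 and -0.0076 without it. Mycn, a growth regulator of progenitors, was 49.4 and 44.1 FPKM in cKO 1 and 2, against 42.5, 76.2 and 54.5 FPKM in controls 1 to 3, and its log2 change was -0.26 with control 2 and -0.043 without it. Mtor had a log2 change of -0.049.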

How the data were processed

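Per the file headers, the deposited table holds FPKM for each locus and library, the authors' mean FPKM per group, and the authors' own comparison. That comparison gives, per the file headers, a log2 fold change with a score for the test, and the deposited p-value and q-value. TopHat, Cufflinks, CASAVA, Bowtie2, MACS and the build mm10 are named in the submitters' processing notes, with no role or version. Sources used here do not give the annotation, the strand setting or the handling of reads with several matches. FPKM is relative, so a library in which other transcripts take more reads has lower values everywhere, and depth and precision per gene are unknown.

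The 12672 loci whose mean reached 1 FPKM were tested, 70 of them members. For each, log2(FPKM + 1) was compared between cKO and control with limma 3.58.1 in R 4.3.3, with a trend of variance on level and Benjamini-Hochberg adjustment over all tested loci. There were 3 residual degrees of freedom, and the prior ones were 2.49. The procedure was tested on simulated data. Sums and medians over members carry no test. The members, gene lists and tests were chosen with earlier results of these data known. Named genes were Chd8, members near 0 in a library, the 5 largest increases and decreases, the 3 highest of each subunit, members without overlap at an unadjusted p under 0.05, and fixed groups (stalk, 5S particle, paralogues, Rps6, Rpsa, Rps19). Rps12, Rpl31, Rpl30 and the genes of other pathway lists were named after their values were seen. Symbols were those of the deposited loci. Gene coordinates, pseudogene names and start windows came from RefSeq (GRCm38.p6). For coordinates, 80 of 81 members matched a protein-coding gene, all but Rps4l. Some genes that this rule names are not reported here. Alternatives changed the pseudocount, filter, scaling, trend, replicate block and members used, and left out each library.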

Additional observations from a re-analysis of the deposited data

How the results depend on the processing

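The median log2 change of the members stayed below 0 in each alternative run, for all members and in each subunit. Leaving out a library gave -0.36 to -0.14 for all members, and quantile normalization gave -0.13. The ratio of the cKO to the control sum was 0.696 to 0.908 when a library was left out. Members called were 0 to 1 (Rpl34 without cKO 1). Members with both cKO libraries below every control left were 13 to 45 (18.6% to 64.3%) when a control was left out. The same share of all tested loci was 19.4% to 28.8%, and both maxima were without control 1. After median centring the members were 6 (8.57%), against 13.5% of all tested loci. Those above were 2 to 8 when a control was left out, 1 with other loci as the scale and 1 with single symbols only. The 8 were without control 2, where 18.2% of all tested loci lay above. Loci called over all were 6 with all libraries and 9 to 37 when a library was left out. They were 3 with a pseudocount of 10 FPKM, 24 without a filter and 3 with the replicate block. The log2 change turned for 12 of 47 named genes. Leaving out a library gave -0.36 to 1.60 for Rpl11, -0.26 to 0.24 for Rpl12, -1.03 to 0.0032 for Rpl28, -4.62 to 0.17 for Rpl29, -0.060 to 0.45 for Rpl3 and -0.26 to 0.67 for Rpl5. It gave -0.61 to 0.032 for Rplp1, -0.014 to 0.35 for Rps19, -0.15 to 0.20 for Rpl22l1, -0.12 to 0.065 for Rpl7l1, -0.18 to 0.32 for Rpl36al and -0.14 to 0.0073 for Eef1a1. Rpl7l1 was 0.0078 after median centring, 0.034 after quantile normalization and 0.022 with other loci as the scale, and Eef1a1 was 0.043 after quantile normalization. With the replicate number as a block, which leaves control 3 without a partner, Rpl3 was -0.060 and Rps19 -0.014, the members' median was -0.19 and no member was called. The deviations of libraries with the same number had correlations of -0.067 and -0.11. These cannot decide on pairing, since the deviations of 2 cKO libraries from their mean mirror each other. The numbers were not taken as pairs because the labels do not say that they pair libraries. The causes were not tested. Unknown depth and 5 libraries limit all of these values.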
